A study of Mus musculus with 6 samples.

Results

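Intron retention was followed in the mouse cortex for 28 days after stroke. The measure was the share that kept an intron among transcripts listed as keeping or splicing it between the same outer exon ends. The deposited tables list splicing events, and an intron appears as 1 row for the transcripts that retain it and 1 row for those that splice it. Both rows carry FPKM, fragments scaled to transcript length and to library size. The retained share is the retaining FPKM divided by the sum of both, in percent. An intron was taken where both rows, with the same outer exon ends, were listed in all 6 libraries and summed to at least 5 FPKM in every one. This gave 561 pairs of rows in 465 genes. Of 7347 entries with either row listed in any library, 4443 had both rows together in at least 1 library. Before the minimum was applied, 923 had both rows in all 6 libraries. The 561 pairs cover 560 distinct introns, since 1 intron is listed with different exon ends, and each pair is counted as an intron below.

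All mice were male C57/BL6J of 6 to 8 weeks. The control library came from sham-operated mice without illumination, taken at day 7 after the operation. The other 5 came from mice with photothrombosis, in which Rose Bengal and cold light over the sensorimotor cortex close the vessels, taken 1, 3, 7, 14 or 28 days later. Where 6 values of an intron follow each other, they run from control to the last day in this order, and 5 values leave out control. Each library held the RNA of the whole ipsilateral cortex of 3 mice, pooled, selected for poly(A) and sequenced with strand, at a stated average of 33.6 M reads. With 1 library per group, no difference has a replicate check, no test was made, and a change of condition cannot be told apart from a difference between libraries. The 5 comparisons with control share 1 control library. In such bulk tissue, fewer cells of a type and less RNA per cell cannot be told apart.

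Introns are normally removed while a transcript is still being made. A transcript that keeps 1 intron can stay in the nucleus, or can be read by the ribosome into an early stop codon and be degraded. Some retained introns instead keep the reading frame and lengthen the protein. Brain tissue is known for much intron retention, and the genes of splicing factors are known to control their own level through it.

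The tables held the markers of cortical tissue, and several of them differed between the libraries. The summed FPKM of 6 neuronal markers was 1588 in control and between 1117 (day 14) and 1488 (day 1) after stroke. That of 7 microglia and macrophage markers was 115 in control, 133, 335, 513 and 401 at day 1, 3, 7 and 14, and 131 at day 28. Infiltrating leukocyte markers summed to 0.909 in control, 17.6 at day 1 and 12.7 at day 14, with Cd2 and Ly6g not listed. Astrocyte markers summed to 654 in control and 1260 at day 3, and choroid plexus markers to 285 in control, 181 at day 3 and 559 at day 28. The part of cell composition in the shares below was not tested.

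The sequences of 10 introns show what a retained intron adds to the transcript. They were chosen among the introns named below, after their values were seen. Each is printed 5′ to 3′ as in the retaining transcript of GENCODE M21 (GRCm38, mm10), with capitals for its first 2 and last 2 bases and for the first stop codon met when the upstream reading frame runs on. In the first set, shown because the share swung by over 60 points between libraries, the stop is met at codon 2 (Mib2), 26 (Sirt7), 12 (Plppr3), 47 (Gba2) and 11 (Golga2), and in Mib2 it overlaps the first 2 bases.
Mib2 (ENSMUSG00000029060, chr4:155657070-155657165, minus strand): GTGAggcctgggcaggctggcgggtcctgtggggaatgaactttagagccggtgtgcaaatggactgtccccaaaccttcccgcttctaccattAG
Sirt7 (ENSMUSG00000025138, chr11:120620505-120620646, minus strand): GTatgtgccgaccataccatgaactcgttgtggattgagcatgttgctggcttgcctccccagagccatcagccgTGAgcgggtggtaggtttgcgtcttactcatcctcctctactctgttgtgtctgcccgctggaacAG
Plppr3 (ENSMUSG00000035835, chr10:79867031-79867171, minus strand): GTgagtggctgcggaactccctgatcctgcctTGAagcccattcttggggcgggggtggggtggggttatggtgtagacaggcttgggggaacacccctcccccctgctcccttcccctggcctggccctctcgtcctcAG
Gba2 (ENSMUSG00000028467, chr4:43569662-43569829, minus strand): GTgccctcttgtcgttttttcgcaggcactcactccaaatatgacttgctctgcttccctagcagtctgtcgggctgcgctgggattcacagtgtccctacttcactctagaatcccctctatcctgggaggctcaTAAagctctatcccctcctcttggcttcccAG
Golga2 (ENSMUSG00000002546, chr2:32299126-32299203, plus strand): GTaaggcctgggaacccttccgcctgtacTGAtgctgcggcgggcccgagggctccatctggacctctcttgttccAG

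The second set swung by over 50 points and holds no stop in frame, so reading through adds 45 (Adgrl1), 37 (Phf24) or 76 (Stard7) codons, and GENCODE types the retaining transcript as protein-coding.
Adgrl1 (ENSMUSG00000013033, chr8:83937326-83937460, plus strand): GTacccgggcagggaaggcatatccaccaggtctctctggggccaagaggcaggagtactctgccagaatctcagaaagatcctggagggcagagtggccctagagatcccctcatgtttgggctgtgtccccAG
Phf24 (ENSMUSG00000036062, chr4:42933668-42933778, plus strand): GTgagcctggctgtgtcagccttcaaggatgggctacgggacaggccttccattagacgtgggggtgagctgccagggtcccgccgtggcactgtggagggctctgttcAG
Stard7 (ENSMUSG00000027367, chr2:127284304-127284531, plus strand): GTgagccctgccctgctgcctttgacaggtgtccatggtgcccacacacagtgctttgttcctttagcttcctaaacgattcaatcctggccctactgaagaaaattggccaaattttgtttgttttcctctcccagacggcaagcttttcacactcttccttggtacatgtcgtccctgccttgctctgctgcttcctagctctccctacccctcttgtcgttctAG

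The third set is shown for contrast. The Eno2 intron kept its share in every library, and the Skiv2l intron is 1 of 4 in its gene that share much of their retaining values. In both the stop, at codon 2, overlaps the first 2 bases.
Eno2 (ENSMUSG00000004267, chr6:124762762-124763004, minus strand): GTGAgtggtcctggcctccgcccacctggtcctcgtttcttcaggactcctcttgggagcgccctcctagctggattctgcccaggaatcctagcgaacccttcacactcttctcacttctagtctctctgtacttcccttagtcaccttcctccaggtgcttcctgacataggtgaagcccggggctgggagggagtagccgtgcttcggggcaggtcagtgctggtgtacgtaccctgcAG
Skiv2l (ENSMUSG00000040356, chr17:34845101-34845167, minus strand): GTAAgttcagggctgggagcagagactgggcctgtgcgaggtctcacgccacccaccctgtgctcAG

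Retention across the 561 introns was low in every library. The median retained share was 3.62%, 3.81%, 3.76%, 3.48%, 3.01% and 4.16%. The level and the order of the libraries changed with the limits, from 1.73% (day 14) to 2.71% (day 3) at a minimum of 10 FPKM and from 4.91% (day 7) to 6.06% (day 28) at a minimum of 2 FPKM. The median difference from control lay between -0.02 (day 14) and 0.01 (day 3) percentage points. An intron was called higher or lower at 10 points or more. At day 1, 63 introns (11.2%) were higher and 57 (10.2%) lower, beside 10.2% higher and 12.3% lower among the 869 introns listed at 5 FPKM in those 2 libraries alone. At day 3, 54 were higher and 44 lower (background 10.7% and 10.1%), and at day 7 57 and 51 (10.4% and 10.7%). For day 14 the counts were 64 higher and 62 lower (11.4% and 12.2%), and for day 28 they were 62 and 44 (12.7% and 10.5%). At every day the members' shares, from 7.84% to 11.4%, were near or below the background. Between 77.5% (day 14) and 82.5% (day 3) of the introns stayed within 10 points of control.

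**Figure D1:**
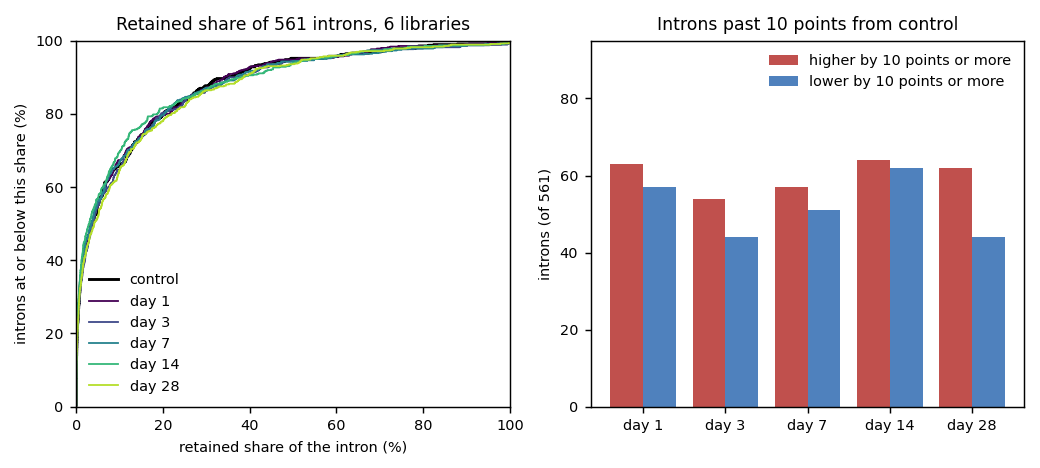
Left, the cumulative share of the 561 introns (%) against their retained share (%), 1 line per library; the 6 lines nearly coincide. Right, the number of introns at least 10 points higher (red) or lower (blue) than control at each day, between 44 and 64 in every bar.

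The libraries were compared with each other as well. The number of introns past 10 points between 2 libraries ran from 98 (control and day 3) to 126 (control and day 14), and was 106 between control and day 28. Each library had introns 10 points or more above all the others (12 in control, then 13, 8, 15, 18 and 18) and below them (7 in control, then 10, 5, 6, 12 and 2). Day 28 was the most one-sided in this count. Where a share moved, the retaining transcripts usually moved more than the spliced ones on the log2 scale. This held for 41 to 52 of the higher introns and 32 to 46 of the lower introns per day. Of the 561 introns, 498 were under 50% in all libraries, so their retaining form was the smaller one. At a steady sum the smaller form moves more on this scale by arithmetic, so these counts do not say which form drove a change.

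Somewhat more introns stayed within 10 points over all libraries (303) than not (258). The range from lowest to highest share was under 5 points for 225 introns, had a median of 7.87 points, and reached 20 points for 146 (26.0%) and 50 points for 27. The share was under 1% in all libraries for 87 introns, at least 50% in all for 12, and crossed 50% for 51. Exon skipping in the same libraries, under the same limits, had 1321 exon pairs. Their median absolute difference from control was 5.67 (day 28) to 7.39 (day 14) points, beside 1.72 (day 3) to 2.48 (day 1) points for the introns. The levels were unlike, with a median inclusion share of 55.5% (day 1) to 58.5% (day 14) against a median retained share of 3.01% to 4.16%. Differences in points at such unlike levels do not say which of the 2 was steadier.

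The widest range was in an intron that switched almost fully. Mib2, a ubiquitin ligase, kept its 96-base intron 11 of 18 at 10.4%, 99.99%, 99.99%, 0.0018%, 0.0017% and 62.8%. In this pair, the retaining row thus held nearly all FPKM in the first 2 libraries after stroke and almost none in the next 2. The summed level lay between 9.74 and 15.3 FPKM. When all rows that hold this intron were summed, including those with other exon ends, the difference from control at day 1 was 60.1 points in place of 89.6, and with all introns of the gene summed it was 37.2. Gba2, a glucosylceramidase outside the lysosome, had 2 introns that were high up to day 7. Its 168-base intron was at 7.67% in control, 70.3%, 56.6% and 58.8% at day 1, 3 and 7, and 0.473% and 1.49% at day 14 and 28. With all rows of this intron summed, the difference at day 1 was 42.3 points in place of 62.7. Its 155-base intron was at 12.4%, then 63.6%, 62.8% and 68.3%, then 0.505% and 16.2%.

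Sirt7, a sirtuin deacetylase of the nucleolus, was high in control and at the last day. Its 142-base intron was at 99.2%, 31.6%, 1.86%, 47.3%, 33.1% and 95.5%. Control and day 28 were the 2 high libraries, and the spliced form, 0.0775 FPKM in control and 0.448 at day 28, was between 7.77 and 10.7 in the others. With all rows of the intron summed, the difference from control was -53.7 points at day 1 in place of -67.5, and -38.5 at day 7 in place of -51.8. Ntsr2, a neurotensin receptor of astrocytes, was high in control alone, at 78.9% against 8.67%, 8.08%, 7.25%, 9.55% and 4.77%. Its 3 pairs share the same retaining values and differ in the spliced junction, and with the 3 summed the difference at day 1 was -23.8 points in place of -70.3.

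Other wide introns peaked in the middle of the course or at 1 day. Gramd1a, a cholesterol transfer protein of the endoplasmic reticulum, went from 8.31% in control to 39.9%, 95.3%, 85.1%, 32.1% and 38.5%, higher than control in all 5 libraries. Adgrl1 (latrophilin 1), an adhesion receptor of the presynapse, was at 2.17%, 7.93%, 34.6%, 84.6%, 0.0811% and 41.3%, with its peak at day 7 and its lowest value at day 14. Snrnp70, a protein of the U1 particle that binds the 5′ splice site, was at 1.39%, 2.20%, 1.00% and 0.243% up to day 7, and at 83.6% at day 14 and 25.3% at day 28. That intron is of 1006 bases, and no annotated protein-coding transcript of the gene splices it at these ends. Pigq, of GPI anchor synthesis, was at 40.2%, 90.5%, 18.3%, 42.9%, 6.18% and 54.0%, highest at day 1 and lowest at day 14. Plppr3, a membrane protein of neurons, had the reverse, at 39.8%, 0.0764%, 41.4%, 0.459%, 75.7% and 6.71%.

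**Figure D2:**
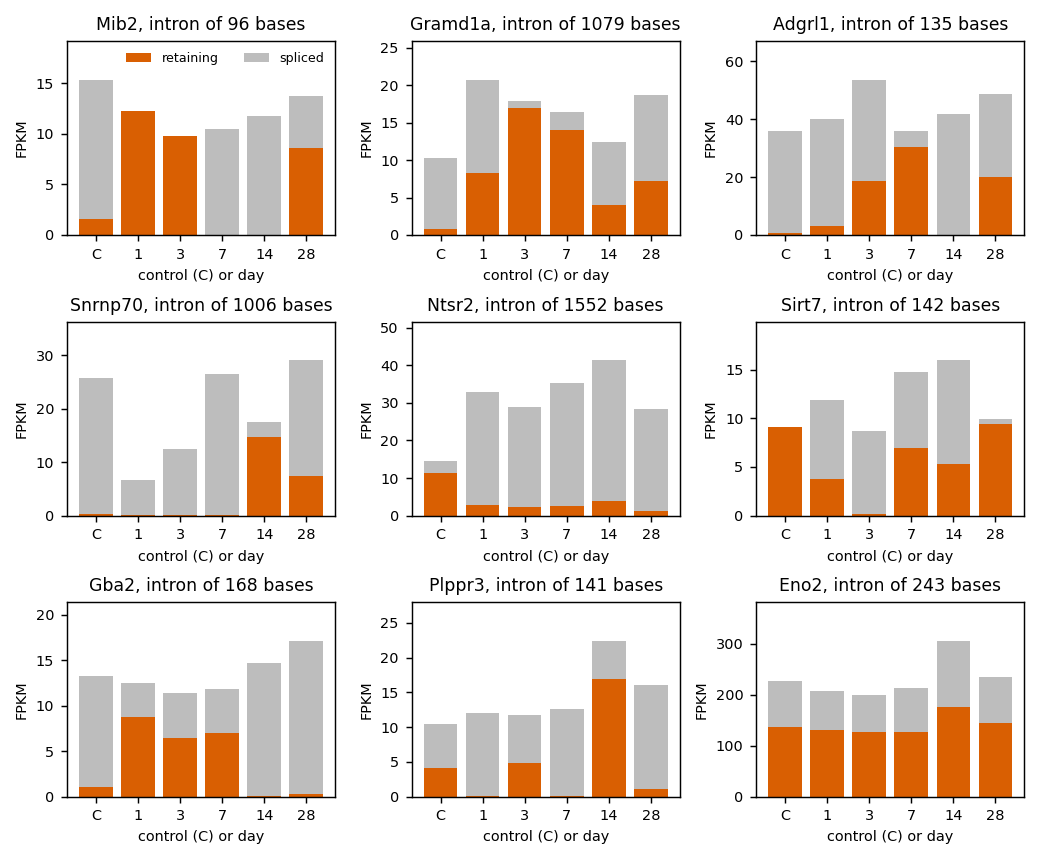
FPKM of the retaining (orange) and spliced (grey) transcripts, stacked, for 9 introns in control (C) and at day 1 to 28, 1 library each. Mib2 switches between nearly all retaining and nearly all spliced, Sirt7 is retaining in control and at day 28, and Eno2 keeps its share at every day.

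Single libraries carried some of the largest differences. Golga2, a matrix protein of the Golgi, was between 80.0% and 89.5% in 5 libraries and at 23.4% at day 14. Plekhj1 was between 34.6% and 65.1% and at 5.89% at day 28, and with all introns of the gene summed that difference from control was -18.3 points in place of -42.2. Rsrp1 was at 60.7% in control and 0.612% at day 1, then between 21.8% and 54.9%. Taz (tafazzin), which remodels cardiolipin in mitochondria, was at 0.00968% at day 1 and between 28.3% and 73.9% elsewhere. Becn1 (beclin 1) of autophagy was under 0.04% in control and at day 3 and at 45.4%, 19.3%, 63.0% and 37.4% at day 1, 7, 14 and 28. Its difference at day 14 was 63.0 points, or 21.3 with its introns summed.

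Of the introns that keep the reading frame, Phf24 was at 30.8% in control and 33.4% at day 7 and at 69.3%, 82.6%, 72.4% and 82.2% at day 1, 3, 14 and 28. Stard7, a carrier of phosphatidylcholine to mitochondria, was at 16.9%, 1.53%, 23.3% and 9.88% up to day 7, and at 65.1% and 31.9% at day 14 and 28. Day 14 was the highest library for Stard7 and the lowest for Adgrl1.

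A few introns lay on 1 side of control at all 5 days. In 7 introns the share was at least 10 points higher throughout (Angel2, Gas2l1, Dennd6b, the 371-base intron of Mib2, Gramd1a, Tpp1 and Cstf2). Tpp1, a peptidase of the lysosome, was at 2.57% in control and at 37.4%, 35.3%, 54.8%, 39.6% and 40.7% after stroke. In 12 introns it was at least 10 points lower throughout (Sf3b1, Ddx5, Ntsr2, Gtpbp2, Brd8, Srsf6, Trim46, Uros, Mau2, Rrp9, Qars and Dhx30). The 5 differences share 1 control library, so these are by construction the introns in which control alone lay 10 points or more from all the others. The counts for the other libraries, given above, ran from 8 to 18 introns on the higher side and from 2 to 12 on the lower side. Only 3 introns (Sirt7, Mta2 and the 447-base intron of Gas5) were lower at day 1, 3, 7 and 14 and within 10 points of control at day 28, and none was higher in that way. At day 28 Sirt7 was -3.68 points from control, while Mta2 (-9.03) and Gas5 (-9.33) lay just inside the limit.

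Introns of splicing factors and RNA-binding proteins, whose genes code for the machinery itself, held several wide swings. Of 80 genes listed, 12 had introns among the 561, with 13 introns. Their median range was 29.2 points against 7.87 over all introns, and 7 of 13 (53.8%) reached a range of 20 points, against 26.0%. Their median mean share was also higher, at 12.9% against 4.78%, and the part of this level in the wider range was not tested. Srsf6, which binds exonic enhancers, was at 48.2% in control, 15.2% at day 3 and under 0.12% in the other 4 libraries. Sf3b1, which binds the branch point region with U2, was at 36.5% in control, 17.0% at day 3, 11.4% at day 28 and under 0.7% elsewhere. Ddx5, an RNA helicase, was at 30.7% in control, 16.1% and 20.3% at day 3 and 28, and between 1.55% and 5.49% in the other 3. Control was the highest library for these 3 introns, and for Sf3b1 and Ddx5 the 3 lowest were day 1, 7 and 14. The introns of Srsf6, Sf3b1 and Ddx5 are long, at 1283, 1813 and 1265 bases. Long introns as a class stood lower at day 1 and day 14 where missing rows were taken as 0, as given below. The part of length in these 3 shares was not tested. Srsf5 was under 7% in control and up to day 7, and at 30.3% and 54.0% at day 14 and 28. Other introns of the list were steadier: Rbm3 stayed between 0.121% and 6.86%, and Hnrnpl between 0.00886% and 3.59%. Of the 13 introns, 0 were called higher and 4 lower at day 1, 1 and 4 at day 3, and 0 and 4 at day 7. For day 14 the counts were 3 and 5, and for day 28 they were 2 and 4. Over all 561 introns, 9.63% (day 3) to 11.4% (day 14) were called higher. Between 7.84% (day 3 and 28) and 11.1% (day 14) were called lower. The 5 comparisons share 1 control library, so the repeated lower calls are not independent of each other.

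**Figure D3:**
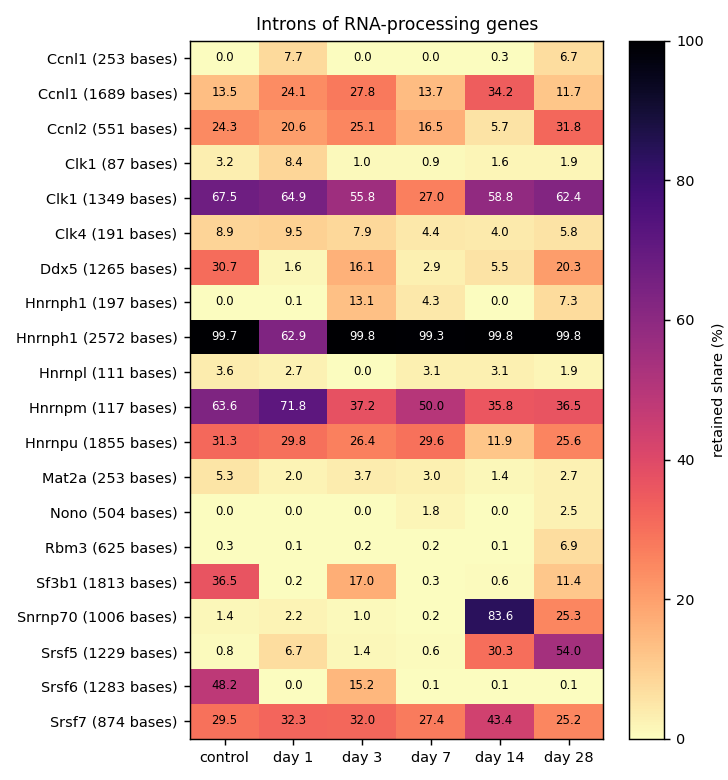
Retained share (%) of the 20 introns of splicing factors, RNA-binding proteins and genes with known regulated retained introns, by library (columns). Srsf6, Sf3b1 and Ddx5 are highest in control, Snrnp70 at day 14 and Srsf5 at day 28, while the long intron of Hnrnph1 is above 60% in all 6.

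Genes known for regulated retention gave 7 introns in 5 genes, with a median range of 7.67 points. Clk1, a kinase of SR proteins, kept its 1349-base intron at 67.5%, 64.9%, 55.8%, 27.0%, 58.8% and 62.4%, lowest at day 7. Its 87-base intron stayed between 0.899% and 8.36%. The intron of Mat2a stayed between 1.41% and 5.31%. Gas5, a noncoding host of snoRNAs, had its 447-base intron at 61.0%, 30.2%, 49.5%, 39.0%, 11.1% and 51.7%. There the spliced form moved, from 4.26 FPKM in control to 14.9 at day 1 and 25.6 at day 14, and the retaining form stayed between 3.21 and 8.52 FPKM.

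Introns of housekeeping groups mostly had low shares. The 15 introns of 13 ribosomal protein genes had a median mean share of 0.459% and a median range of 0.656 points. The 5 introns of respiratory chain genes had a median range of 0.813 points, and the 12 of proteasome genes 3.51 points. Among the higher ones, an intron of Rpl10a was between 61.7% and 82.4%, and another, with the same retaining values, between 6.61% and 15.4%. Psmc4 was at 11.7% at day 1 and 10.8% at day 3, against 1.31% in control. The highest of the proteasome list was 1 of Psmb10, of the immunoproteasome, at 21.4% in control and 43.3%, 30.2%, 25.8%, 37.8% and 38.2% after stroke. The 4 introns of 3 immune genes (Grn, H2-T23 and Psmb10) had a median range of 6.08 points. In Grn (progranulin), which had a summed 11.9 FPKM in control and 79.0 at day 7, the share was 4.65% and 0.231% in those 2 libraries.

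Neuronal and glial genes were few among the introns, with 2 neuronal, 1 myelin and 0 astrocyte introns from the lists. Eno2, the enolase of neurons, retained intron 9 of 11 at 60.3%, 63.0%, 63.2%, 59.9%, 57.8% and 61.7%, at a summed 199 to 305 FPKM. All 6 libraries lay close together, and none of the 5 differences from control reached 10 points. Slc17a7, the vesicular glutamate transporter, stayed between 0.0523% and 3.85%, and Mag of myelin under 1%.

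Introns of 1 gene are not independent, and in Skiv2l, a helicase that works with the RNA exosome, 4 introns had nearly the same course. Their retaining values were identical in 3 of them up to day 14 and in 2 of them in all libraries. The 67-base intron was at 28.1%, 25.3%, 33.2%, 19.3%, 49.6% and 26.9%, and the other 3 were highest at day 14 as well, at 45.4%. Eif4a2, Sept4 and Rhot2 also had 4 introns each, none above 7%. Across the 78 genes with more than 1 intron, the mean share differed within the gene by a median of 7.13 points, and by 20 points or more in 24.

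The 561 introns were short and lay inside the coding part. Their median length was 217 bases (65 to 4690), 217 (38.7%) were of 150 bases or less, and 542 lay between coding exons. Of the 543 with a sequence, 538 began with GT and ended with AG, 4 were GC-AG and 1 (Tcea2) was AT-AC. The donor of the minor spliceosome, searched as GTATCCTT at the first base of the intron on its own strand, began 5 (Cnep1r1, Polr2e, Rpl4, Selenom and Tmem258), or 0.921%, against 0.496% of all 2623 introns with a sequence. Reading through met a stop in 440 of 526 introns (83.7%), after a median of 13 codons, while 26 kept the frame without one. The mean share hardly varied with length (Spearman rho 0.06 over 561 introns that share the same libraries), and was lower at higher FPKM (rho -0.32). The range was wider at low FPKM, where 37.4% of the 187 introns of lowest FPKM reached 20 points, against 17.6% of the 187 of highest FPKM. The median mean share of these 2 sets also differed, at 9.63% and 1.66%, and its part in the range was not tested.

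The 30 introns kept by an annotated protein-coding transcript differed in form. Their median length was 99.5 bases, 20 were a multiple of 3 and 17 of 28 kept the frame with no stop. Their median mean share was 21.9%, against 4.48% for the 457 kept by transcripts typed as retained intron. The highest were Nrbp1 (94.9% or more in every library), Crtc1, a coactivator of CREB (97.1% to 99.8%), and Clcn4, a chloride and proton exchanger, which was over 99% in 5 libraries and at 44.9% at day 1.

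**Figure D4:**
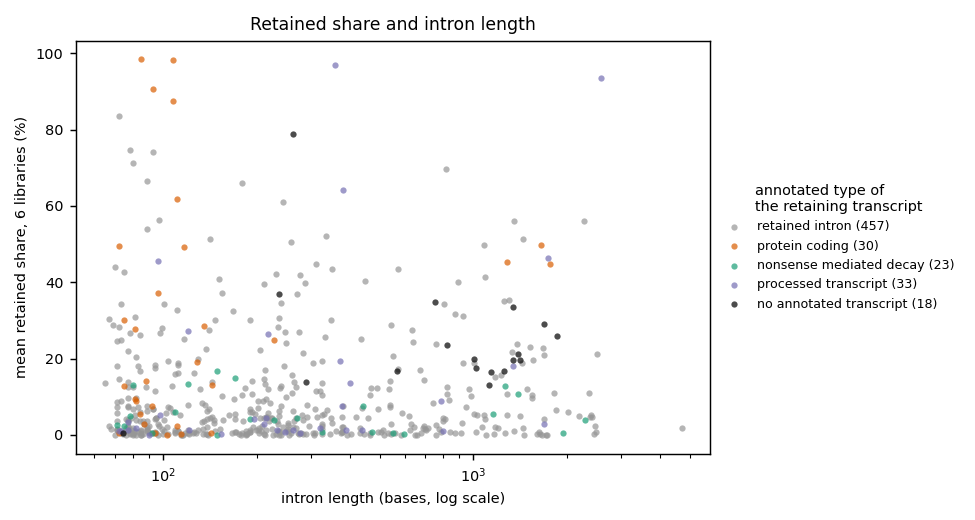
Mean retained share over the 6 libraries (%) against intron length (bases, log scale), 1 point per intron, coloured by the annotated type of the retaining transcript. Of the 30 introns kept by protein-coding transcripts (orange), 26 are of 150 bases or less, and their median share is 21.9%.

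The limit that both rows be listed leaves out introns whose retaining row is missing from a library. With a missing row taken as 0, 1567 introns were kept, and here day 1 and day 14 stood lower. The retaining row was listed for 65.3%, 61.1%, 69.2%, 69.1%, 55.7% and 66.6% of them. Among the 522 longest (758 to 12470 bases) the mean share was 10.2%, 7.51%, 10.9%, 9.91%, 6.91% and 10.3%. Among the 523 shortest (24 to 232 bases) it stayed between 13.1% and 13.8%. In this setting, 161 introns were higher and 218 lower at day 1, and 158 and 228 at day 14, so that 42.5% and 40.9% of calls were higher, against 52.5% and 50.8% among the 561.

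Longer transcripts were also lower at those days: the log2 ratio of a gene to control and its transcript length had a rho of -0.25 at day 1 and -0.41 at day 14, over 11771 and 12025 genes, and between -0.09 and 0.00 at the other days. The part of this trend in the lower shares of long introns was not tested.

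**Figure D5:**
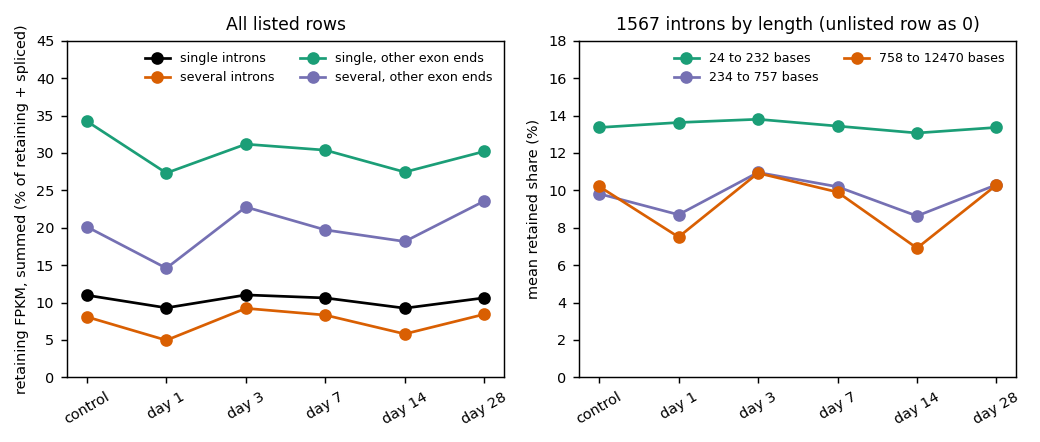
Left, summed retaining FPKM as a share (%) of retaining and spliced FPKM, for the 4 kinds of retention rows in the tables, by library. Right, mean retained share (%) of 1567 introns in 3 length classes with a missing row as 0; the long class dips to 7.51% at day 1 and 6.91% at day 14, while the short class stays between 13.1% and 13.8%.

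At the minimum of 5 FPKM, the introns just inside were in Slc25a10 and Gss (5.01 FPKM each in their lowest library) and H2-Ke6 (5.08), and those just outside in Alkbh6, Gas5 and Dvl3 (4.93 each). Dvl3 was at 45.5% in control and between 1.37% and 61.6% after stroke.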

How the data were processed

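Polyadenylated RNA of 6 pooled cortex samples was measured by strand-specific paired-end sequencing (reads of 150 bases). The FPKM values were computed and deposited by the authors, 1 value per splicing event and library, summed over its transcripts. The submitters' processing notes name Trimmomatic 0.30, HISAT2 2.0.1, HTSeq 0.6.1 and the build mm10, and the tool behind the event tables is not given in the sources used here. FPKM hold no read counts, so library depth is unknown here and no interval is given. Between 16.7% and 21.7% of the retaining rows per library were under 0.1 FPKM.

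Retaining and spliced rows were paired by intron and outer exon ends and matched between libraries by coordinates, because 964 of 11161 event identifiers stand for more than 1 intron. Hosts were named through the GENCODE M21 junction. For 55 introns the identifier in the tables is that of a neighbouring or nested gene. Log2 ratios used a pseudocount of 0.1. The work was done in Python 3.11.15 with pandas 2.3.3, numpy 2.4.6 and scipy 1.17.1, and plotted with matplotlib 3.10.9. On simulated data, all 600 pairs were recovered and 200 of 200 changed pairs were called, with 0 false calls. This checks the pairing and calling steps only. It gives no error rate for calls in the real libraries, since no group had a replicate to show the noise between libraries.

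The introns and gene lists were chosen with earlier results of these data known. Set for naming were the 10 introns of widest range, the 3 largest rises and falls per day, and the 5 highest and 5 lowest means. Up to 4 introns per list and the genes with the most introns were added. Not all of them are described above. Among those left out were Rpl13a, Cfap20, Chmp2a and Drap1, all of the 5 lowest. Their mean shares were 0.000102%, 0.00221%, 0.00487% and 0.00543%. Introns on 1 side of control throughout, and edge cases, were named after their values were seen. Alternatives covered the minimum, missing rows, ambiguous event identifiers, 1 intron per gene, annotation, length, day 14, the threshold, the log2 odds ratio and the pseudocount. Rows with several introns or other exon ends served only for comparison.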

Additional observations from a re-analysis of the deposited data

Results flagged for a closer look

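In 36 introns the share was 10 points or more above control at one day and below it at another, and in 2 it was 30 points or more from control both ways. The 277-base intron of Pigq, an enzyme of GPI anchor synthesis, was 50.4 points above control at day 1 and -34.0 points from it at day 14 (control 40.2%). The 141-base intron of Plppr3, a membrane protein of neurons, was 35.9 points above control at day 14 and -39.7 points from it at day 1 (control 39.8%). These differences between days were not tested, since each day has 1 library.

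Rows that retain several introns at once were outside the main measure and lay above the control level at some days. Their pooled retained share in control was 8.09%, against 9.23% (day 3), 8.33% (day 7) and 8.44% (day 28), and it was lower at day 1 (4.96%) and day 14 (5.81%). With other exon ends, the share of such rows in control was 20.1%, against 22.8% (day 3) and 23.6% (day 28). It was lower at day 1 (14.6%), day 7 (19.7%) and day 14 (18.2%). Rows of single introns with other exon ends were also outside the main measure. Their share was 34.2% in control and lower at every day, at 27.3%, 31.2%, 30.4%, 27.4% and 30.2%.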

How the results depend on the processing

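With 1 library per group, no alternative can say whether a difference would recur, and values at low FPKM are the least certain. Counts of introns higher and lower than control are given for day 1, 3, 7, 14 and 28 in that order. With a minimum of 2 FPKM they were 97 and 115, 89 and 96, 97 and 99, 115 and 106, and 103 and 90, and 266 introns reached a range of 20 points. With a minimum of 10 FPKM they were 33 and 32, 31 and 24, 31 and 25, 38 and 31, and 35 and 24, with 78 at that range. With a missing row taken as 0 (1567 introns) they were 161 and 218, 213 and 171, 198 and 189, 158 and 228, and 194 and 175, with 405 at that range. Matched by event identifier, the lower introns numbered 24 (day 3), 40 (day 14) and 28 (day 28), and 95 reached that range. A threshold of 5 points gave 98 and 99, 100 and 73, 92 and 93, 96 lower at day 14, and 106 and 82. A threshold of 20 points gave 21 and 24, 15 and 20, 20 and 16, 24 and 25, and 26 and 16. A log2 odds ratio of 1 gave 108 and 118, 93 and 83, 99 and 93, 101 and 129, and 108 and 96. Lower calls outnumbered higher ones, against the main setting, at day 1, 3 and 7 with a minimum of 2 FPKM, at day 1 and 7 with 5 points, at day 1, 3 and 14 with 20 points, and at day 1 and 14 with missing rows as 0 and with the log2 odds ratio. The cause of these turns was not tested. The median share also moved, to between 1.73% and 2.71% with a minimum of 10 FPKM, 4.91% and 6.06% with 2 FPKM, and 0.0587% (day 14) and 1.46% (day 3) with missing rows as 0. Among the 448 introns with such identifiers, it was highest at day 3 (3.33%) and 2.93% at day 28. Taking 1 intron per gene, annotated introns only, introns of at most 1000 bases or day 14 out of the filters left every count within 1.5 times. Summing all rows of an intron, which was chosen after seeing the data, did so as well. A pseudocount of 1 moved every median log2 ratio of the retaining and spliced FPKM by less than 0.1, and the counts at 10 points do not use it. No paired analysis was possible because the labels give no replicate numbers and each group has 1 library.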
